A study of Mus musculus with 12 samples.

Results

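The genes described here handle amino acids in mouse bone marrow-derived basophils (BMBAs): transporters that bring them into the cell, enzymes that make serine, proline and asparagine or pass carbon from serine to folate, the transcription factor ATF4 with genes of its stress response, and tRNA synthetases. From a list of 35 gene symbols, all 35 were in the count table, and the 30 whose mean over the 12 libraries reached 1 CPM (counts scaled to library size) were taken. They are 9 transporters, 5 synthesis enzymes, 5 one-carbon enzymes, 6 genes of ATF4 and the stress response and 5 tRNA synthetases, out of 31301 gene rows in the table. The rule used the mean level only. Pycr1 lay just below the threshold at 0.640 CPM and Atf5 just above it at 2.01 CPM. Slc1a4, Slc7a3, Slc7a7 and Slc43a1 were between 0 and 0.219 CPM and were left out with Pycr1. Of the 30 genes, 28 had enough counts to be tested. Atf5 and Trib3 did not, and are given by their values alone.

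Wild-type C57BL/6J mice gave the bone marrow, which was cultured for 7 days with 0.3 ng/mL interleukin-3 (IL-3) or with 1 µg/mL thymic stromal lymphopoietin (TSLP), a dose taken from the treatment protocol because the sample labels give it in mg/mL. Cells were sorted as FcεRIαhi CD49blo (immature, called pre-basophils in the study) or FcεRIαlo CD49bhi (mature), which gave 4 groups of 3 libraries of polyadenylated RNA, named here by cytokine and stage, such as IL-3 immature. All groups share the strain and the culture time, and none carries an altered allele. The study asked whether basophils grown with TSLP resemble mature or immature cells grown with IL-3.

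Libraries held 1720065 to 3685285 counts. The ribosomal RNA row Rn45s took 7.43% to 20.2% of them and was higher in TSLP immature than in IL-3 immature libraries (1.09 ± 0.31, adjusted p = 0.0272). With the ribosomal row Rn18s added, the share was 13.1% (IL-3 immature 1) to 33.9% (TSLP immature 3). This joint share was at most 22.2% in IL-3 immature libraries, and every TSLP immature library lay above that. The 10 basophil markers summed to 38250 to 42038 CPM in immature cells with IL-3 and 27790 to 30834 with TSLP, and to 10700 to 12921 and 8951 to 12117 in mature cells. None was at 0 throughout a group, and 4 were higher and 5 lower in immature cells with IL-3, and 3 and 3 with TSLP. Of all genes tested, 46.2% and 25.1% differed between these stages. The library TSLP mature 1 stood apart from the other TSLP mature libraries: its counts differed from theirs by a chi-square of 40.8 and 51.4 per degree of freedom, against 2.09 to 13.1 for all other replicate pairs. Its 8 macrophage and monocyte markers summed to 1565 CPM against 629 and 673, its 12 neutrophil and myeloid precursor markers to 1139 against 173 and 178, and its 8 B lineage markers to 175 against 20.1 and 21.8. Results that turn on this library are given with and without it.

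As background, cells take up amino acids through carriers of the solute carrier (SLC) families, many of which exchange an amino acid inside the cell for another outside. Serine can also be made from an intermediate of glycolysis by PHGDH, PSAT1 and PSPH, and SHMT and MTHFD enzymes then move a carbon unit from serine onto folate for the synthesis of nucleotides and methionine. When amino acids run short or translation is stressed, phosphorylation of eIF2α raises the translation of ATF4, a transcription factor that induces many of these transporters and enzymes. ATF4 is thus regulated largely by translation, and its mRNA level does not report its protein.

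One element through which ATF4 acts together with C/EBP proteins, the C/EBP-ATF response element, was searched as TGATGNAA on both strands in the promoter windows of RefSeq (250 bases before to 50 after an annotated transcription start, GRCm38.p6). Windows were present for 25 of the 30 genes, not including Slc1a5, Slc7a5, Slc38a1, Wars and Nars. These letters occurred in 6 of the 25 genes (24%), against 4.51% of 27025 genes with a window. The E-box CACGTG, searched for comparison, occurred in 2 of the 25 (8%, Aars and Aldh18a1) against 8.09%. The sequences around the matches are shown because the 6 genes carry the same letters and yet did not share a direction in the counts below. Each is written 5′ to 3′ on the strand of the gene. The stretches lie at chr6:7693210-7693272 for Asns, chr3:50443623-50443719 for Slc7a11 and chr2:152344028-152344057 for Trib3 on the minus strand, and at chr2:119351009-119351086 for Chac1, chr8:111033656-111033767 for Aars and chr6:55037931-55038000 for Gars on the plus strand. Counted from the start of the window's transcript, with upstream bases negative, the match begins at -23 in Asns, at -66 and -47 in Slc7a11, at 15 in Trib3, at -193 in Chac1, at -112 in Aars and at -30 in Gars. In Slc7a11 and Aars this start lies inside the annotated gene, which begins at chr3:50499087 and chr8:111027778. The capitals mark the match, and in Aars also the E-box at -146.
Asns: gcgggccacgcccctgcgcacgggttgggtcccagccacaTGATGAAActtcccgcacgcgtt
Slc7a11: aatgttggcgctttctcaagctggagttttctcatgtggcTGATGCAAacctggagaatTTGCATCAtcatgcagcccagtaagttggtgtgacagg
Trib3: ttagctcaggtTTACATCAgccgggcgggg
Chac1: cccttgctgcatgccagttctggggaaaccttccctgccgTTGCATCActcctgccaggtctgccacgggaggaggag
Aars: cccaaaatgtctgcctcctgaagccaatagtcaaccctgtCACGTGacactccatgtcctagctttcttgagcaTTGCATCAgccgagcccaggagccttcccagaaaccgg
Gars: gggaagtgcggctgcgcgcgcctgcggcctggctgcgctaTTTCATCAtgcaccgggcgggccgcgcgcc
A second match in Aars, at base 10 after the start, is not shown. A match is a description of the letters, not evidence of binding.

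Immature cells had more mRNA of all 10 synthesis and one-carbon enzymes than mature cells, whichever cytokine was used, and less of the mTORC1 inhibitors Ddit4 and Sesn2. In IL-3 cultures 22 of the 28 tested genes differed between the stages (17 higher and 5 lower in immature cells), which is 78.6%, where 46.2% of all 10861 genes tested did (22.1% higher, 24.1% lower). In TSLP cultures 18 of 28 differed (14 higher, 4 lower in immature cells), which is 64.3%, where 25.1% of all genes did (12.2% higher, 12.9% lower). The median log2 difference of the 28 genes, immature minus mature, was 0.92 with IL-3 and 0.53 with TSLP, beside -0.06 and -0.03 over all genes. Over all 4 groups 24 of 28 genes differed, where 60.8% of all genes did. Slc38a2, Atf4, Wars and Sars did not pass that test. Tests are the quasi-likelihood F test of edgeR with p adjusted by Benjamini-Hochberg over all genes tested, called at an adjusted p under 0.05. Differences are log2 values ± an SE, calculated back from the test as the absolute difference divided by the square root of F. Where a group holds few counts, this SE can understate the counting error, which the exact binomial intervals show. In bulk RNA, fewer cells that express a gene and less of its RNA per cell cannot be told apart.

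**Figure D1:**
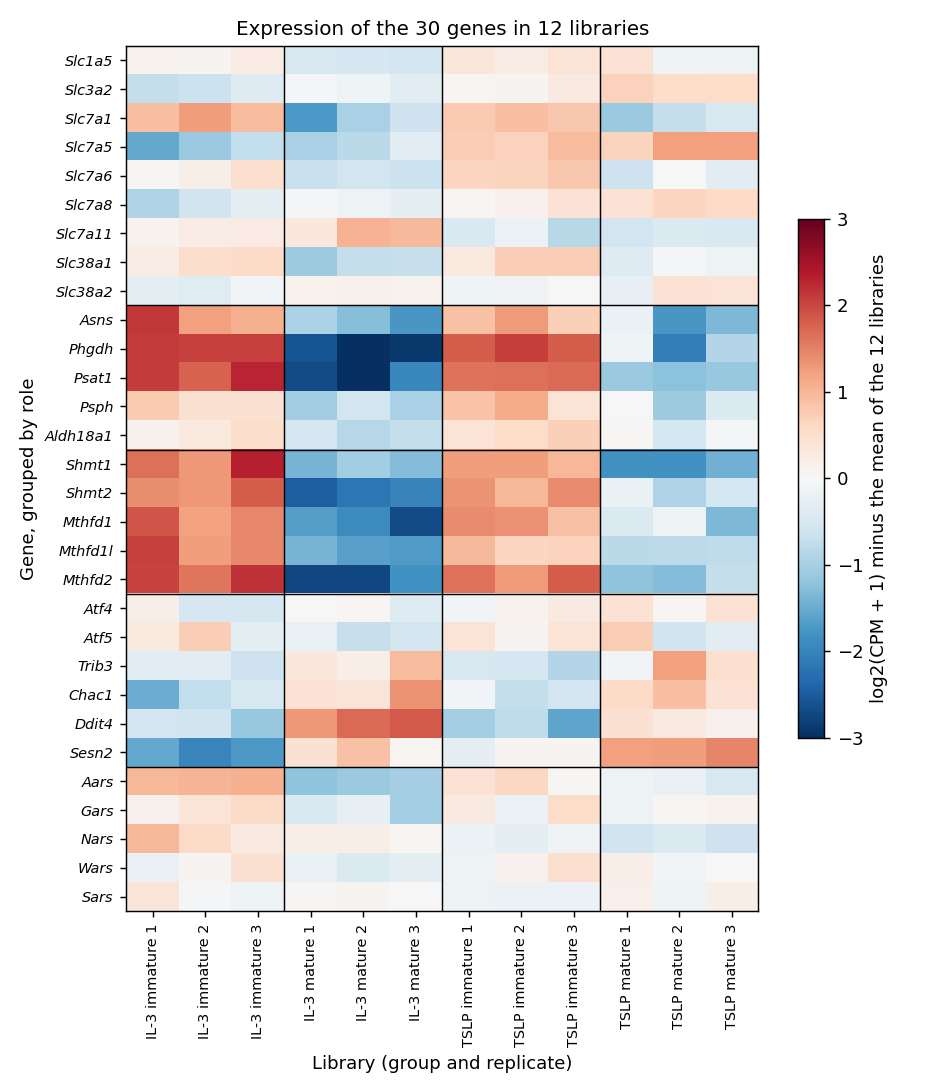
Expression of the 30 genes (rows, grouped by role) in the 12 libraries (columns). Colour is log2(CPM + 1) minus the mean of the gene over the 12 libraries, with red above and blue below that mean. The 10 synthesis and one-carbon enzymes form a block that is red in the 6 immature libraries and blue in most of the 6 mature ones, while the rows of Ddit4 and Chac1 run the other way.

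All 5 enzymes of serine, proline and asparagine synthesis were higher in immature cells in both cultures. Phgdh encodes the first enzyme of the serine pathway and was at 88.8, 85.4 and 85.4 CPM in immature cells with IL-3 and 72.2, 86.7 and 72.5 with TSLP, and at 2.49, 1.09 and 1.8 in mature cells with IL-3 and 18.1, 3.97 and 10.5 with TSLP. Its 6 immature values lay above all 6 mature ones, and its mature values with TSLP lay above those with IL-3. The difference between stages was 5.55 ± 0.43 (adjusted p = 4.28e-08) with IL-3, and 2.82 ± 0.32 (adjusted p = 9.61e-06) with TSLP. The latter was 3.52 without TSLP mature 1. Of the 50-base stretches of the Phgdh transcript, 63.1% also occur in transcripts of other genes, chiefly pseudogenes, so its counts depend on how such reads were assigned. Psat1 encodes the next enzyme and shares only 1.21%. It was at 45.6, 36.3 and 52 CPM in immature cells with IL-3 and 33.1, 33.2 and 34.4 with TSLP, and at 0.712, 0.364 and 1.8 in mature cells with IL-3 and 4.05, 3.69 and 4 with TSLP. The 6 immature values again lay above the 6 mature ones, with 5.56 ± 0.33 (adjusted p = 2.91e-09) in IL-3 and 3.09 ± 0.25 (adjusted p = 3.09e-07) in TSLP cultures. Without IL-3 mature 3 the former was 6.30. As ratios of counts, Psat1 was 48.9-fold (95% exact binomial interval 23.5 to 122) higher in immature cells with IL-3 and 8.58-fold (95% exact binomial interval 6.17 to 12.2) higher with TSLP.

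Psph, which encodes the last enzyme of the serine pathway, differed less, by 1.53 ± 0.33 (adjusted p = 0.00112) in IL-3 and 1.35 ± 0.29 (adjusted p = 0.00316) in TSLP cultures. It fell from 16.2 ± 2.33 to 5.5 ± 1.24 CPM (mean ± SD, n = 3) with IL-3 and from 19.5 ± 4.97 to 7.58 ± 2.99 with TSLP. Psph overlaps exons of Cct6a on the opposite strand, and whether strand was used in counting is not given in the sources used here. Aldh18a1, which encodes the entry enzyme of proline synthesis, was higher in immature cells by 1.11 ± 0.24 (adjusted p = 0.00151) and 0.78 ± 0.22 (adjusted p = 0.017). Asns makes asparagine and was at 13.6, 6.86 and 5.96 CPM in immature cells with IL-3 and 5.11, 7.03 and 4.43 with TSLP, and at 0.712, 0.364 and 0 in mature cells with IL-3 and 1.89, 0 and 0.308 with TSLP. Its mature groups rest on 3 and 8 counts in all, in IL-3 and TSLP cultures. Its ratio of immature to mature counts was 21.1-fold (95% exact binomial interval 6.94 to 105) with IL-3 and 7.13-fold (95% exact binomial interval 3.34 to 17.4) with TSLP. On the log2 scale Asns differed by 4.33 ± 0.79 (adjusted p = 0.000301) and 2.79 ± 0.68 (adjusted p = 0.00661), and leaving out IL-3 mature 1 or TSLP mature 1 moved these to 5.14 and 4.93.

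All 5 one-carbon enzymes were also higher in immature cells in both cultures. Mthfd2, a mitochondrial folate enzyme, was at 26.2, 19.1 and 28.8 CPM in immature cells with IL-3 and 19.5, 15.2 and 22.5 with TSLP, and at 0, 0 and 0.902 in mature cells with IL-3 and 1.89, 1.7 and 3.08 with TSLP. It was at 0 in 2 of the 3 IL-3 mature libraries, and no other group had a library without counts. The ratio of counts between the stages was 94.2-fold (95% exact binomial interval 25.7 to 783) with IL-3, where the mature libraries held 2 counts, and 8.78-fold (95% exact binomial interval 5.66 to 14.2) with TSLP. Its log2 differences were 6.36 ± 0.55 (adjusted p = 1.26e-07) and 3.10 ± 0.36 (adjusted p = 1.21e-05). Both counts in the IL-3 mature group came from IL-3 mature 3, and without that library the group was at 0, so no ratio of counts can be given. Over the 20 alternatives run, that omission among them, the log2 difference with IL-3 lay between 5.78 and 9.28 and stayed called.

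Shmt2, the mitochondrial enzyme that splits serine into glycine and a carbon unit, was at 23.8, 22.3 and 32.1 CPM in immature cells with IL-3 and 23.2, 18 and 24.2 with TSLP, and at 0.712, 1.09 and 1.35 in mature cells with IL-3 and 7.28, 3.97 and 5.54 with TSLP. Its cytosolic counterpart Shmt1 was at 10.2, 7.71 and 16.9 CPM in immature cells with IL-3 and 7.52, 7.42 and 6.13 with TSLP, and at 0.356, 0.729 and 0.451 in mature cells with IL-3 and 0, 0 and 0.308 with TSLP. The mature groups were ordered differently for these paralogs: Shmt2 was higher in TSLP mature than in IL-3 mature cells, while the single count of Shmt1 in TSLP mature cells and its 4 counts in IL-3 mature cells gave a ratio (IL-3 over TSLP) of 5.4 with an interval of 0.534 to 266. The stage difference was 4.61 ± 0.36 (adjusted p = 4.98e-08) and 1.95 ± 0.26 (adjusted p = 4.94e-05) for Shmt2 in IL-3 and TSLP cultures. For Shmt1 it was 4.39 ± 0.54 (adjusted p = 6.97e-06) and 5.68 ± 0.69 (adjusted p = 1.65e-05), and as a ratio of counts in TSLP cultures 73.7-fold (95% exact binomial interval 12.7 to 2960). With 1 count in the mature group, this interval is wider than the SE of 0.69 implies. The single count came from TSLP mature 3, without which the group was at 0. Exons of Shmt1, Shmt2 and Mthfd1 overlap a gene on the opposite strand, with the same limit as for Psph.

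Mthfd1l, the mitochondrial enzyme that releases formate, was at 91.2, 52.3 and 58.9 CPM in immature cells with IL-3 and 42.7, 33.6 and 34.7 with TSLP, and at 7.48, 6.19 and 5.86 in mature cells with IL-3 and 11.6, 11.9 and 12 with TSLP. All 4 groups were apart, in the order IL-3 immature, TSLP immature, TSLP mature and IL-3 mature. Mthfd1, the cytosolic enzyme, was at 22.8, 14 and 16.6 CPM in immature cells with IL-3 and 16.2, 15.6 and 10.9 with TSLP, and at 1.07, 0.729 and 0 in mature cells with IL-3 and 3.78, 4.82 and 1.54 with TSLP. It was higher in immature cells by 4.69 ± 0.53 (adjusted p = 2.49e-06) with IL-3 and 2.05 ± 0.38 (adjusted p = 0.000896) with TSLP, and the former was 5.3 without IL-3 mature 1.

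**Figure D2:**
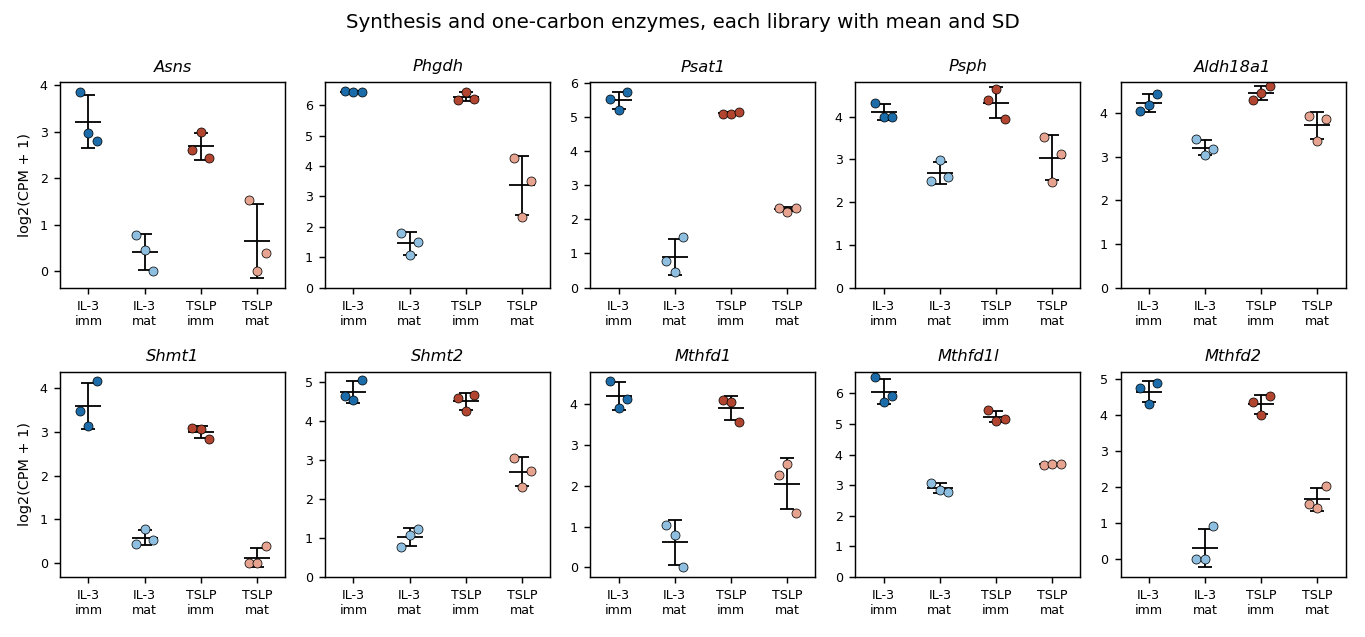
Levels of the 10 synthesis and one-carbon enzymes as log2(CPM + 1) in each library (points), with the mean and SD of 3 libraries per group (imm, immature; mat, mature). In each panel the immature points lie above the mature points of the same culture. The TSLP mature points lie above the IL-3 mature points for Phgdh, Psat1, Shmt2, Mthfd1, Mthfd1l and Mthfd2 and below them for Shmt1.

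For 6 genes the gap between the stages was narrower with TSLP. The difference between the stage effects (TSLP minus IL-3) was itself tested and passed for 6 of 28 genes (21.4%), all 6 of them negative, where 4.19% of all genes passed (2.15% higher, 2.04% lower). Of these, 5 are enzymes of the serine and one-carbon pathways. They are Phgdh at -2.74 ± 0.58 (adjusted p = 0.0129), Psat1 at -2.47 ± 0.49 (adjusted p = 0.00877), Shmt2 at -2.65 ± 0.49 (adjusted p = 0.00626), Mthfd1l at -1.70 ± 0.34 (adjusted p = 0.00942) and Mthfd2 at -3.26 ± 0.84 (adjusted p = 0.0379). The other is the synthetase Aars, at -1.62 ± 0.32 (adjusted p = 0.00871). Mthfd1 was at -2.64 ± 0.73 (adjusted p = 0.053). Of the stress genes, Sesn2 was at 0.99 ± 0.31 (adjusted p = 0.0909) and Ddit4 at 1.01 ± 0.32 (adjusted p = 0.092), and of the transporters Slc7a11 was at 0.65 ± 0.34 (adjusted p = 0.331). The calls of Phgdh and Mthfd2 were lost when single libraries were left out. Phgdh was at adjusted p = 0.072 and 0.0509 when IL-3 mature 2 or IL-3 mature 3 was omitted, and at -2.08 without TSLP mature 1, still called. Mthfd2 was not called without any 1 of IL-3 immature 1 or 3, IL-3 mature 1 or 2, TSLP immature 1 or 2, or TSLP mature 3 (adjusted p = 0.0645 to 0.131). Psat1 was at -3.15 without IL-3 mature 3. Of genes not called, Mthfd1 was called without TSLP mature 3 (adjusted p = 0.0214), Sesn2 without IL-3 mature 3 (1.19, 0.0434) and Ddit4 without TSLP mature 1 (1.16, 0.0435) or TSLP immature 3 (1.25, 0.0427).

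**Figure D3:**
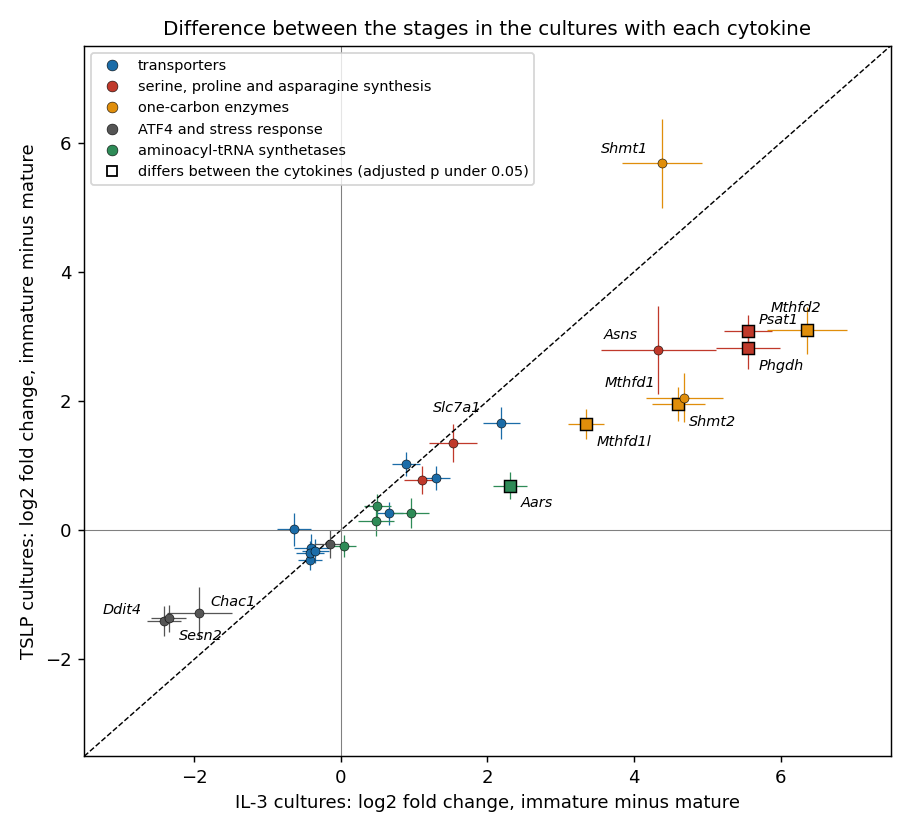
Difference between the stages (log2 fold change, immature minus mature) in IL-3 cultures (x axis) and TSLP cultures (y axis) for the 28 tested genes, coloured by role, with bars of 1 SE. The dashed line marks equal differences. The 6 genes drawn as squares are those whose difference between the cytokines passed the test, and all 6 lie below the line, while Shmt1 lies above it, with an SE of 0.69 in TSLP cultures. The bars can understate the counting error of genes with few counts, such as Shmt1.

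In mature cells several of these enzymes were higher with TSLP. TSLP mature cells had more of 13 and less of 3 of the 28 genes than IL-3 mature cells (57.1%), where 24.3% of all genes differed (12.4% higher, 11.9% lower). Among the enzymes, 6 of 10 were higher: Phgdh by 2.57 ± 0.49 (adjusted p = 0.00233), Psat1 by 2.06 ± 0.44 (adjusted p = 0.00428), Shmt2 by 2.4 ± 0.43 (adjusted p = 0.00147), Mthfd1 by 2.34 ± 0.65 (adjusted p = 0.0164), Mthfd2 by 2.90 ± 0.79 (adjusted p = 0.0151) and Mthfd1l by 0.85 ± 0.27 (adjusted p = 0.0329). Psat1 was 4.34-fold (95% exact binomial interval 1.93 to 11.5) and Shmt2 5.47-fold (95% exact binomial interval 2.6 to 13.3) higher as ratios of counts. Asns, Psph, Aldh18a1 and Shmt1 did not pass. Without IL-3 mature 3 the difference of Psat1 was 2.71, and without IL-3 mature 1 that of Mthfd1 was 2.96. This comparison shares its libraries with the stage comparisons above and is not independent of them. Phgdh was highest in TSLP mature 1, and without that library its difference was 1.88 (adjusted p = 0.00511), while Mthfd1l was no longer called (0.78, adjusted p = 0.0716). Leaving out any 1 of 8 other libraries also ended the call of Mthfd1l (adjusted p = 0.0503 to 0.127). That of Mthfd1 was lost without IL-3 mature 2, IL-3 mature 3 or TSLP mature 2 (adjusted p = 0.0598 to 0.0706) and that of Mthfd2 without IL-3 mature 1 or 2 (0.0633 and 0.0704). Without IL-3 mature 2 or without IL-3 mature 3, 10 genes were called in place of 16. Of 8 B lineage markers 3 had enough counts to be tested, and all 3 were higher in TSLP mature than in IL-3 mature cells (median log2 difference 5.06). The 8 summed to 2.14 to 2.91 CPM in IL-3 mature libraries, with 3 of them at 0 throughout, and to 20.1 to 175 CPM in TSLP mature libraries, with none at 0 throughout. Their part in the differences between the cytokines was not tested.

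In immature cells the cytokines differed in 7 of 28 genes (4 higher, 3 lower with TSLP, 25%), where 13.3% of all genes differed (7.38% higher, 5.9% lower). Of the 10 enzymes only Mthfd1l passed, at -0.85 ± 0.21 (adjusted p = 0.0134), so its level was lower with TSLP in immature cells and higher in mature cells. This call was lost without IL-3 immature 1 (-0.59, adjusted p = 0.0711) or TSLP immature 3 (-0.82, 0.0608). Phgdh was at -0.17 ± 0.28 (adjusted p = 0.748) and Psat1 at -0.41 ± 0.20 (adjusted p = 0.196). Without IL-3 immature 1, IL-3 immature 2 or TSLP immature 3 the number of genes called was 4, 4 and 3 in place of 7. The B lineage markers summed to 6 to 7.28 CPM in IL-3 immature and 34.8 to 41.9 CPM in TSLP immature libraries, with 3 and 1 of the 8 at 0 throughout, and 1 of the 3 tested was higher with TSLP. Their part was not tested here either.

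Markers of dividing cells moved with these enzymes. All 18 were higher in immature than in mature cells in both cultures (median log2 difference 5.74 with IL-3 and 3.52 with TSLP), 13 of 18 were higher in TSLP mature than in IL-3 mature cells, 5 were lower in TSLP immature than in IL-3 immature cells, and the stage difference was smaller with TSLP for 11. Their summed level was 2724 to 2806 CPM in immature cells with IL-3 and 1908 to 1982 with TSLP, and 116 to 146 and 289 to 353 in mature cells, with 1 marker at 0 throughout IL-3 mature cells. The groups stood in the same order as the summed level of the one-carbon enzymes, which was 148 ± 29.8 and 99.1 ± 9.66 CPM in immature and 8.98 ± 0.562 and 23.1 ± 1.22 CPM in mature cells with IL-3 and TSLP. Of all genes tested, 46.2% and 25.1% differed between the stages with IL-3 and TSLP. Between the cytokines 24.3% differed in mature and 13.3% in immature cells, and the stage gap differed for 4.19%. The part of dividing cells in the enzyme levels was not tested.

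Transporters moved in both directions between the stages. In IL-3 cultures 4 of 9 were higher and 2 lower in immature cells, with a median of -0.35, and in TSLP cultures 3 were higher and 1 lower, with a median of 0.01. Of all genes tested, 46.2% differed with IL-3 and 25.1% with TSLP, with medians of -0.06 and -0.03. Slc7a1, the carrier of arginine and lysine, changed most. It was at 44.1, 56.8 and 45.7 CPM in immature cells with IL-3 and 41.2, 44.5 and 41.9 with TSLP, and at 6.41, 11.3 and 14.9 in mature cells with IL-3 and 10.3, 13.9 and 16.3 with TSLP. The 6 immature values lay above the 6 mature ones, by 2.19 ± 0.26 (adjusted p = 3.85e-06) with IL-3 and 1.66 ± 0.24 (adjusted p = 0.00011) with TSLP, and neither cytokine comparison passed the test. Slc38a1, a sodium-coupled carrier of glutamine and other neutral amino acids, was at 61.1, 76 and 78.5 CPM in immature cells with IL-3 and 64.6, 87.9 and 87.5 with TSLP, and at 24.6, 31.7 and 32 in mature cells with IL-3 and 39.9, 49.9 and 46.8 with TSLP. It was higher in immature cells by 1.29 ± 0.19 (adjusted p = 4.88e-05) and 0.81 ± 0.19 (adjusted p = 0.0044). In mature cells it was higher with TSLP by 0.63 ± 0.19 (adjusted p = 0.0275), a call lost without any 1 of the IL-3 mature libraries, TSLP mature 2 or 3, or IL-3 immature 2 (adjusted p = 0.0524 to 0.113). Slc7a6, which exchanges cationic for neutral amino acids, was likewise higher in immature cells, by 0.89 ± 0.19 (adjusted p = 0.00125) and 1.03 ± 0.19 (adjusted p = 0.000709).

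A second set of transporters followed the cytokine. Slc7a5 encodes LAT1, an exchanger of leucine and other large neutral amino acids, and was at 37.4, 49.99 and 65.6 CPM in immature cells with IL-3 and 183, 176 and 211 with TSLP, and at 55.2, 61.9 and 86.6 in mature cells with IL-3 and 175, 258 and 257 with TSLP. All 6 TSLP values lay above all 6 IL-3 values, and the stages overlapped in both cultures. TSLP cells were higher by 1.89 ± 0.24 (adjusted p = 9.54e-05) in immature and 1.76 ± 0.23 (adjusted p = 0.000198) in mature cells, 3.63-fold (95% exact binomial interval 3.27 to 4.03) and 3.43-fold (95% exact binomial interval 3.12 to 3.78) as ratios of counts. Slc3a2 encodes CD98, the heavy chain that LAT1 and the other Slc7 light chains described here, except Slc7a1, need to reach the surface. It was at 147, 154 and 185 CPM in immature cells with IL-3 and 254, 255 and 294 with TSLP, and at 233, 223 and 196 in mature cells with IL-3 and 390.4, 355 and 358 with TSLP. Every TSLP value again lay above every IL-3 value, with differences of 0.72 ± 0.16 (adjusted p = 0.00943) and 0.76 ± 0.16 (adjusted p = 0.00431). The call in immature cells was lost without IL-3 immature 2 (adjusted p = 0.0586) or TSLP immature 3 (0.0594).

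Slc7a8, the related exchanger LAT2, was at 109, 133 and 165 CPM in immature cells with IL-3 and 212, 222 and 275 with TSLP, and at 197, 184 and 166 in mature cells with IL-3 and 274, 319 and 309.5 with TSLP. Its TSLP values also lay above its IL-3 values, by 0.80 ± 0.19 (adjusted p = 0.0108) in immature and 0.72 ± 0.18 (adjusted p = 0.0108) in mature cells. The call in immature cells was lost without IL-3 immature 1 (adjusted p = 0.058), IL-3 immature 2 (0.0516) or TSLP immature 3 (0.0674), and that in mature cells without IL-3 mature 3 (0.0633). Between the stages with IL-3 it was called only without IL-3 immature 3 (-0.53, adjusted p = 0.0318).

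Slc3a2 was lower in immature than in mature cells, at -0.42 ± 0.16 (adjusted p = 0.0476) with IL-3 and -0.46 ± 0.16 (adjusted p = 0.0499) with TSLP, both just inside the threshold. Both calls were lost under most alternative settings, among them without the Rn45s row (adjusted p = 0.0976 and 0.104), and the one in TSLP cultures also without TSLP mature 1 (0.135). Per kilobase of the longest coding transcript, Slc3a2 stood at 57.7 ± 7.21 and 95.2 ± 8.15 CPM per kb in immature cells with IL-3 and TSLP, and at 77.1 ± 6.78 and 131 ± 7 in mature cells (mean ± SD, n = 3). In the same order Slc7a8 stood at 33.3 ± 6.88, 57.9 ± 8.27, 44.6 ± 3.84 and 73.6 ± 5.86, and Slc7a5 at 14.5 ± 4.02, 54 ± 5.24, 19.3 ± 4.7 and 65.4 ± 13.5. The heavy chain was thus above both of these light chains in each group on this scale. Slc7a8 was above Slc7a5 beyond their SDs in IL-3 cells, and within them in TSLP cells.

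Slc7a11 encodes xCT, which imports cystine in exchange for glutamate, and ran against the other partners of CD98. It was at 17.5, 18.9 and 19.2 CPM in immature cells with IL-3 and 11.4, 14.1 and 8.51 with TSLP, and at 20.3, 34.2 and 32.5 in mature cells with IL-3 and 10.5, 11.6 and 11.4 with TSLP. All 6 TSLP values lay below all 6 IL-3 values. TSLP mature cells were lower than IL-3 mature cells, at -1.37 ± 0.24 (adjusted p = 0.00118), and immature cells stood at -0.72 ± 0.25 (adjusted p = 0.065). The call of a lower level in IL-3 immature than IL-3 mature cells (-0.64 ± 0.23, adjusted p = 0.0317) held in 7 of 20 alternatives. It was lost without any 1 of 8 libraries (adjusted p = 0.0539 to 0.193), with the size factors of DESeq2 (0.0546) and without the Rn45s row (0.0605). No filter on low counts (0.124), a filter of 10 CPM in 3 libraries (0.0753) and the DESeq2 Wald test (0.0789) also ended it. The cytokine difference in immature cells was called without TSLP mature 1 (adjusted p = 0.0406) or IL-3 mature 1 (0.0463).

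Slc1a5, the exchanger of glutamine and other neutral amino acids known as ASCT2, was at 42.7, 41.4 and 46.7 CPM in immature cells with IL-3 and 50.2, 46.1 and 52.4 with TSLP, and at 28.1, 27.7 and 26.6 in mature cells with IL-3 and 53.2, 35.7 and 35.1 with TSLP. It was higher in immature cells with IL-3 (0.66 ± 0.19, adjusted p = 0.00918) and higher in TSLP mature than IL-3 mature cells (0.59 ± 0.19, adjusted p = 0.033). TSLP mature 1 alone was above the immature values. Without it the latter difference was 0.28 (adjusted p = 0.21), and it was also not called without any 1 of 9 other libraries (0.0551 to 0.136). Without TSLP mature 1, TSLP immature cells were above TSLP mature cells by 0.58 (adjusted p = 0.00944). Slc38a2, another sodium-coupled carrier and a known target of ATF4, did not differ among the groups in any test with all libraries. Its TSLP mature values were 90.7, 147 and 144 CPM, the lowest in TSLP mature 1, and without that library it was lower in TSLP immature than in TSLP mature cells (-0.42, adjusted p = 0.0338).

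**Figure D4:**
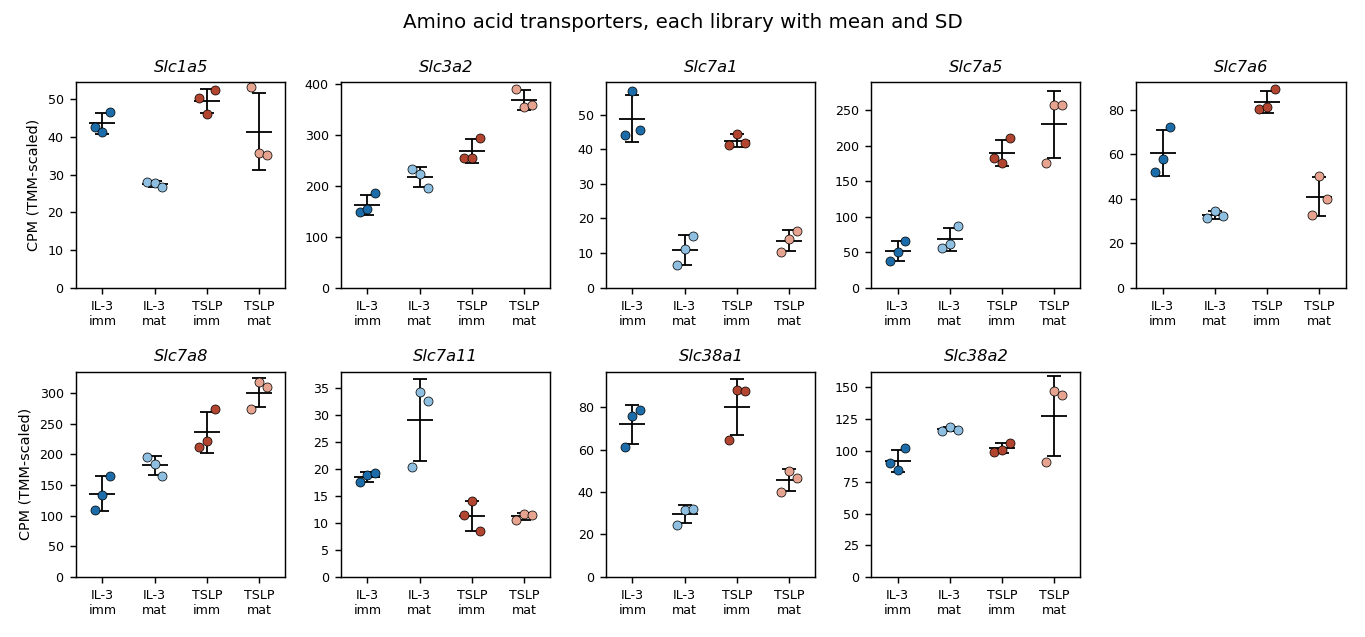
CPM of the 9 transporters in each library (points), with the mean and SD of 3 libraries per group (imm, immature; mat, mature). Slc3a2, Slc7a5 and Slc7a8 are higher in the TSLP groups and Slc7a11 is lower, while Slc7a1, Slc7a6 and Slc38a1 separate the stages.

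Atf4 mRNA was high everywhere, at 382, 239 and 233 CPM in immature cells with IL-3 and 318, 361 and 408 with TSLP, and at 336, 349 and 256 in mature cells with IL-3 and 454, 353 and 454 with TSLP. The stages overlapped in both cultures and no comparison passed the test, the nearest being TSLP mature against IL-3 mature cells at 0.42 ± 0.22 (adjusted p = 0.168). Genes that ATF4 can induce did not follow one direction. Sesn2, a leucine sensor that restrains mTORC1, was at 13.6, 9.71 and 11.9 CPM in immature cells with IL-3 and 34.3, 44.2 and 43.9 with TSLP, and at 57, 77.2 and 42.8 in mature cells with IL-3 and 99, 99.3 and 116 with TSLP. It was lower in immature cells, at -2.35 ± 0.24 (adjusted p = 7.52e-07) with IL-3 and -1.36 ± 0.21 (adjusted p = 0.000164) with TSLP, and higher with TSLP by 1.81 ± 0.24 (adjusted p = 0.000157) in immature and 0.82 ± 0.20 (adjusted p = 0.00967) in mature cells. The last of these calls was lost without IL-3 mature 3 (0.58, adjusted p = 0.069).

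Ddit4 encodes REDD1, another inhibitor of mTORC1, and was at 63.1, 62.3 and 42.4 CPM in immature cells with IL-3 and 46.6, 55.5 and 31 with TSLP, and at 236, 313 and 341 in mature cells with IL-3 and 132, 115 and 104 with TSLP. It was lower in immature cells, at -2.41 ± 0.23 (adjusted p = 4.91e-07) and -1.40 ± 0.23 (adjusted p = 0.000318). Unlike Sesn2 it was lower in TSLP mature than in IL-3 mature cells, at -1.34 ± 0.22 (adjusted p = 0.000977), and in immature cells it stood at -0.33 ± 0.23 (adjusted p = 0.376). Chac1, which degrades glutathione, was at 0.97, 2.29 and 2.98 CPM in immature cells with IL-3 and 4.21, 2.34 and 2.72 with TSLP, and at 6.41, 6.19 and 13.1 in mature cells with IL-3 and 7.28, 9.36 and 6.46 with TSLP. Its values were low but higher in mature cells, with differences of -1.93 ± 0.44 (adjusted p = 0.00191) and -1.28 ± 0.40 (adjusted p = 0.028). The latter call was lost without IL-3 immature 2, TSLP immature 2, TSLP immature 3 or TSLP mature 2 (adjusted p = 0.0523, 0.132, 0.108 and 0.117).

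Trib3 encodes a pseudokinase that ATF4 induces and was too low to be tested with all libraries. It was at 1.46, 1.43 and 0.993 CPM in immature cells with IL-3 and 1.2, 1.17 and 0.681 with TSLP, and at 2.85, 2.55 and 4.96 in mature cells with IL-3 and 1.89, 6.24 and 3.38 with TSLP. Each of its mature values lay above each of its immature values. Without TSLP mature 1 it passed the filter on low counts, and was lower in immature cells with IL-3 (-1.32, adjusted p = 0.0417) and with TSLP (-2.11, 0.0064). The IL-3 difference was called only there, in 1 of the 11 alternatives that tested it (adjusted p up to 0.162). The TSLP difference was also called without any 1 of 6 other libraries (adjusted p = 0.0264 to 0.0391). Atf5, a related transcription factor, was between 0.729 and 3.78 CPM in all libraries, lowest in an IL-3 mature and highest in a TSLP mature library. It was at 2.49 ± 1.2 and 2.46 ± 0.44 CPM in immature and at 1.02 ± 0.362 and 1.95 ± 1.59 CPM in mature cells with IL-3 and TSLP (mean ± SD, n = 3).

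**Figure D5:**
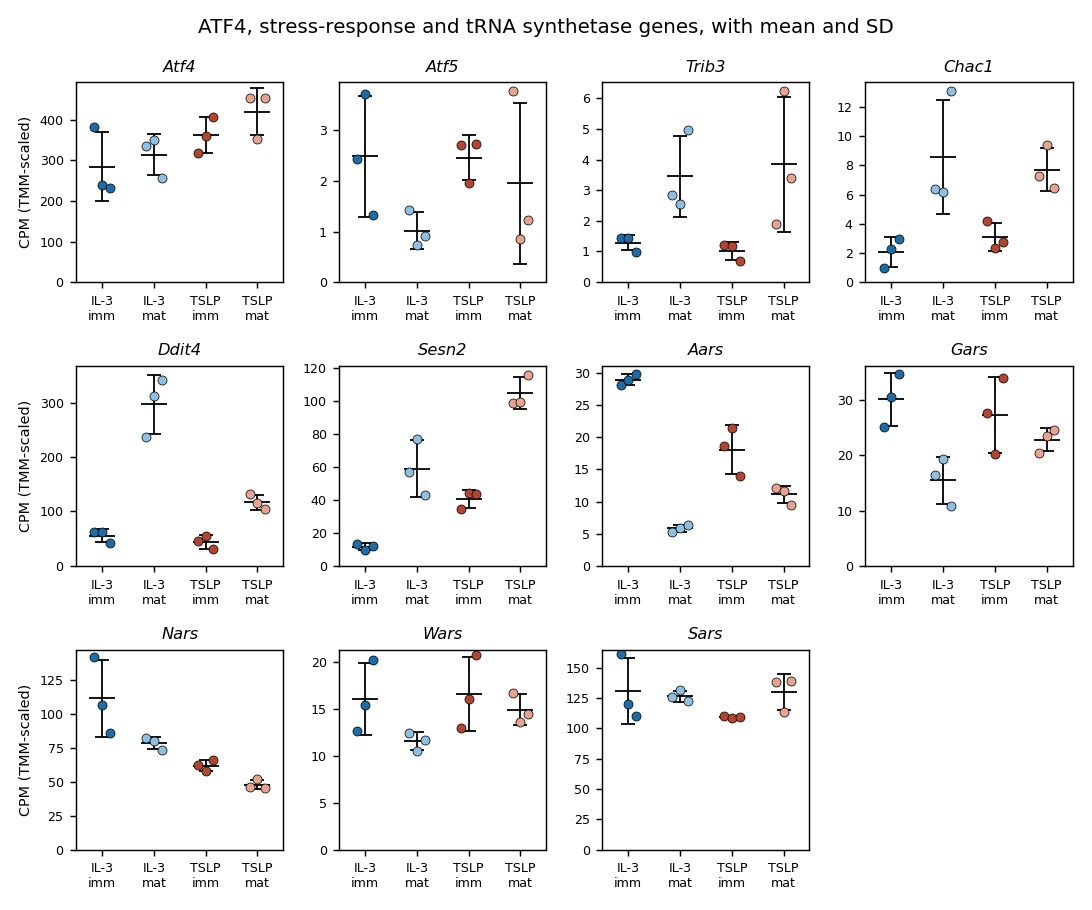
CPM of the genes of ATF4 and the stress response and of the tRNA synthetases in each library (points), with the mean and SD of 3 libraries per group (imm, immature; mat, mature). Ddit4 peaks in IL-3 mature and Sesn2 in TSLP mature cells, Aars is highest in IL-3 immature cells, and the Atf4 points of the stages overlap in each culture.

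Among the tRNA synthetases, which load amino acids onto tRNAs, Aars was at 28.1, 28.9 and 29.8 CPM in immature cells with IL-3 and 18.6, 21.5 and 14 with TSLP, and at 5.34, 5.83 and 6.31 in mature cells with IL-3 and 12.1, 11.6 and 9.54 with TSLP. All 4 groups were apart. It was higher in immature cells by 2.31 ± 0.23 (adjusted p = 7.67e-07) with IL-3 and 0.69 ± 0.21 (adjusted p = 0.0252) with TSLP. Against IL-3 it was lower with TSLP in immature cells (-0.69 ± 0.20, adjusted p = 0.0336) and higher in mature cells (0.93 ± 0.25, adjusted p = 0.0133). The call in immature cells was lost without any 1 of 5 of the 6 libraries compared, all but TSLP immature 2 (adjusted p = 0.0724 to 0.163). The stage difference with TSLP was lost without TSLP immature 1, TSLP immature 2 or TSLP mature 3 (0.0682 to 0.0934), and the difference in mature cells without IL-3 mature 2 (0.0625). Of the 50-base stretches of its longest transcript, 22.4% also occur in transcripts of Exosc6.

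Nars, the asparagine counterpart, had lower values with TSLP, at 142, 106 and 85.8 CPM in immature cells with IL-3 and 62.2, 57.8 and 65.7 with TSLP, and at 81.9, 79.8 and 73.5 in mature cells with IL-3 and 46.4, 51.9 and 45.5 with TSLP. It was lower with TSLP, at -0.84 ± 0.18 (adjusted p = 0.00737) in immature and -0.71 ± 0.19 (adjusted p = 0.0125) in mature cells. All 6 TSLP values lay below the 6 IL-3 values. It was also higher in IL-3 immature than IL-3 mature cells (0.50 ± 0.18, adjusted p = 0.0339), a call lost without IL-3 immature 1 or any 1 of the IL-3 mature libraries (adjusted p = 0.0526 to 0.145). Gars was higher in IL-3 immature than in IL-3 mature cells (0.95 ± 0.24, adjusted p = 0.00439) and did not pass in the other comparisons. Wars and Sars passed in none. Sars was between 109 and 162 CPM in all libraries.

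The 6 genes with the ATF4 element letters in their promoter thus did not share a direction between the stages. In IL-3 cultures Asns, Aars and Gars were higher in immature cells, and Slc7a11 and Chac1 were lower. The call of Slc7a11 held in 7 of 20 alternatives. In TSLP cultures Asns and Aars were higher and Chac1 was lower. Slc7a11 (0.01 ± 0.25, adjusted p = 0.978) and Gars (0.26 ± 0.23, adjusted p = 0.445) were not called there. Trib3 was not tested with all libraries, and its mature values lay above its immature values. Mthfd2, Psat1 and Phgdh, which had the widest stage gaps in IL-3 cultures, had no match in the windows searched. For Mthfd2 the window (chr6:83317555-83317854, minus strand) lies inside the annotated gene, which begins at chr6:83326011, so the sequence at that start was not searched.

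Other genes of the same pathways were counted from longer lists. The lists were written with results of these data known, and their counts stand beside the shares of all genes called, 46.2% between the stages with IL-3 and 25.1% with TSLP, 24.3% between mature and 13.3% between immature cells. Of 14 other cytosolic tRNA synthetases, 12 were higher in immature cells with IL-3 and 8 with TSLP. The leading ones were Vars (2.05 ± 0.21, adjusted p = 8.85e-07), Iars (3.29 ± 0.34, adjusted p = 1.09e-06) and Eprs (2.01 ± 0.23, adjusted p = 2.42e-06) in IL-3 cultures. In mature cells 6 were higher and 1 lower with TSLP, in immature cells 2 were lower, and for Vars, Farsa and Eprs the stage gap was smaller with TSLP, as for Aars. The stage gap differed for 4.19% of all genes. Kars was lower with TSLP at both stages, at -1.25 ± 0.30 (adjusted p = 0.0131) in immature and -1.22 ± 0.31 (adjusted p = 0.0107) in mature cells.

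Of 18 other folate, methionine and glycine genes, 7 were higher and 3 lower in immature cells with IL-3, and 6 and 4 with TSLP, beside 46.2% and 25.1% of all genes called in either direction. Ahcy, which clears S-adenosylhomocysteine, was higher by 3.57 ± 0.34 (adjusted p = 3.85e-07) and 2.23 ± 0.31 (adjusted p = 7.36e-05). Gart, an enzyme of purine synthesis that uses a folate carbon, was higher in TSLP mature than in IL-3 mature cells by 1.88 ± 0.31 (adjusted p = 0.000857), where 5 of the list were higher and 2 lower, and Gart and Mat2a were the 2 whose stage gap differed. Over all genes, 24.3% differed between mature cells and 4.19% in the stage gap. Between the cytokines in immature cells, Ahcy was nearest to the threshold at -0.83 ± 0.27 (adjusted p = 0.0513).

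Of 13 tested other amino acid transporters, 2 were higher and 6 lower in immature cells with IL-3, and 1 and 4 with TSLP, beside 46.2% and 25.1% of all genes. Slc6a9, a glycine transporter, was lower in immature cells, at -2.44 ± 0.18 (adjusted p = 2.58e-08) with IL-3 and -1.05 ± 0.17 (adjusted p = 0.000252) with TSLP, the only one of the 13 whose stage gap differed between the cytokines (1.39 ± 0.24, adjusted p = 0.00423). Slc43a3, a purine carrier of an amino acid transporter family, was higher by 4.18 ± 0.39 (adjusted p = 3.46e-07) and 4.07 ± 0.39 (adjusted p = 1.54e-06). In immature cells 6 of 13 were higher with TSLP, where 7.38% of all genes were. Among them were Slc6a9 (1.27 ± 0.18, adjusted p = 0.000344) and the branched-chain amino acid carrier Slc43a2 (0.73 ± 0.21, adjusted p = 0.0277). In mature cells none of the 13 differed between the cytokines, where 24.3% of all genes did.

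Of 21 tested eIF2α kinases and other genes of the integrated stress response, 8 were higher and 6 lower in immature cells with IL-3, and 5 were lower with TSLP. Over all genes, 46.2% and 25.1% were called in either direction. Eif2ak1, the haem-regulated eIF2α kinase, was lower in immature cells, at -1.44 ± 0.17 (adjusted p = 5.23e-06) and -0.64 ± 0.17 (adjusted p = 0.0116). Ppp1r15a, the stress-induced subunit of the eIF2α phosphatase, was lower in immature cells with IL-3 (-1.23 ± 0.17, adjusted p = 2.75e-05) and higher with TSLP than with IL-3 in immature cells (0.94 ± 0.17, adjusted p = 0.0026), where 2 of the list were higher and 13.3% of all genes differed. In mature cells 4 were higher and 4 lower with TSLP, where 24.3% of all genes differed. Eif4ebp1, an inhibitor of translation initiation that ATF4 induces, was at -1.51 ± 0.33 (adjusted p = 0.00462).

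Of 23 tested genes of amino acid sensing upstream of mTORC1, 3 were lower in immature cells with IL-3, and 3 were lower and 1 higher with TSLP, beside 46.2% and 25.1% of all genes called in either direction. The arginine sensor Castor1 was lower, at -2.44 ± 0.41 (adjusted p = 0.000148) and -1.47 ± 0.33 (adjusted p = 0.00411). With TSLP 4 were higher and 4 lower in mature cells, and 4 higher and 2 lower in immature cells, including Rheb, the GTPase that activates mTORC1, at -1.51 ± 0.29 (adjusted p = 0.00244) in mature cells and Flcn, a regulator of the Rag GTPases, at 0.89 ± 0.22 (adjusted p = 0.0131) in immature cells. The shares of all genes that differed were 24.3% in mature and 13.3% in immature cells. Of 10 tested genes of glutathione synthesis and use, 3 were higher and 2 lower in immature cells with IL-3, and 1 and 1 with TSLP, against the same shares. Txnrd1, the cytosolic thioredoxin reductase, was higher in immature cells by 1.05 ± 0.18 (adjusted p = 0.00014) and 1.10 ± 0.16 (adjusted p = 0.00013). With TSLP 1 of the 10 was higher at each stage, Slc25a39 in mature cells (0.87 ± 0.27, adjusted p = 0.0264) and Txnrd1 in immature cells (0.52 ± 0.16, adjusted p = 0.046), beside the same 24.3% and 13.3% of all genes.

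Ordered by group mean, 14 of the 30 genes were highest in immature cells with IL-3 and 6 in those with TSLP, 3 in mature cells with IL-3 and 7 in those with TSLP, and 17 of 30 were lowest in IL-3 mature cells. Over all 10861 genes tested, which do not include Atf5 and Trib3, 30% were lowest there. The shares highest in each group were 28.6% in IL-3 immature, 15% in TSLP immature, 27.5% in IL-3 mature and 28.9% in TSLP mature cells. The 3 genes highest in IL-3 mature cells were Slc7a11, Chac1 and Ddit4. Macrophage and monocyte markers were lower in immature cells for 4 of 8 with IL-3 and for 8 of 8 with TSLP, and their summed level was 473 to 808 CPM in IL-3 mature and 629 to 1565 in TSLP mature libraries. Their part in the genes that were lower in immature cells was not tested. Neutrophil and myeloid precursor markers summed to 2727 to 3037 CPM in immature cells with IL-3 and 1428 to 1496 with TSLP, and to 447 to 639 and 173 to 1139 in mature cells. Of the 11 tested, 3 were higher and 2 lower in immature cells with IL-3, and 3 were higher and 6 lower with TSLP. Beside these marker counts, 46.2% of all genes tested differed between the stages with IL-3 and 25.1% with TSLP. Their part in the stage differences was not tested. Of 7 mast cell markers 1 had enough counts to be tested, and it was higher in immature cells and lower with TSLP.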

How the data were processed

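Libraries were made from oligo(dT)-captured mRNA that was amplified by PCR and read on an Ion Proton sequencer. Per the study's methods, reads were trimmed (Cutadapt) and aligned to reference RNA sequences of GRCm38 (Bowtie2). The submitters' notes also name GRCm39 and mm10. The authors deposited 1 table of raw read counts per gene for the 12 libraries, 1720065 to 3685285 counts each. An unnamed row of column totals, 50% of each column, was left out. Whether strand or molecular identifiers were used, and how reads with several matches were treated, is not given in the sources used here, so count intervals cover counting error only.

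Samples were grouped by their labels, and 0 columns were left unmapped. Fold changes and tests are from edgeR 4.0.16 (R 4.3.3): the quasi-likelihood F test over all 12 libraries in 1 model of 4 groups with TMM scaling, after filterByExpr (minimum count 10, total 15), which left 10861 of 31301 genes, and Benjamini-Hochberg adjustment over all of them. The common biological coefficient of variation was 20.4%. CPM are scaled by TMM, except the unscaled mean that chose the genes. Comparisons were immature against mature in each culture, TSLP against IL-3 at each stage, the difference of the stage effects, and any difference among the groups. Gene-wise ratios of summed counts have 95% exact binomial intervals. The scripts were tested on simulated counts. Alternatives were other scaling, other filters, DESeq2 1.42.0, a fit of only the groups compared, the replicate number as a block, omission of the Rn45s row (Rn18s was kept) and of each library. The study's own tool for differential expression, TCC, was not used here.

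All 30 genes are described, and of each pathway list at most the 3 genes with the smallest adjusted p in a comparison are named. The genes, pathway lists and marker lists were chosen with earlier results of these data known. Per the study, the 3 libraries of a group stand for 3 cultures. Whether these came from separate mice is not given in the sources used here, and p-values measure the spread between them. Promoter sequences are from RefSeq (GRCm38.p6).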

Additional observations from a re-analysis of the deposited data

Results flagged for a closer look

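Each of the 6 genes below had a difference between the stages that itself differed between the cytokines by the edgeR test of that difference, adjusted over all genes tested (TSLP minus IL-3, log2). Phgdh was at -2.74 ± 0.58, with group means of 86.5 ± 1.94 and 77.1 ± 8.31 CPM in immature and 1.8 ± 0.7 and 10.8 ± 7.06 CPM in mature cells with IL-3 and TSLP (mean ± SD, n = 3). Psat1 was at -2.47 ± 0.49, with group means of 44.6 ± 7.9 and 33.6 ± 0.722 CPM in immature and 0.96 ± 0.751 and 3.91 ± 0.195 CPM in mature cells. These genes of serine synthesis both had their lowest mean in IL-3 mature and their highest in IL-3 immature cells.

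Among the one-carbon enzymes, Shmt2 was at -2.65 ± 0.49, with group means of 26.1 ± 5.3 and 21.8 ± 3.32 CPM in immature and 1.05 ± 0.322 and 5.6 ± 1.66 CPM in mature cells. Mthfd1l was at -1.70 ± 0.34, with group means of 67.5 ± 20.8 and 37 ± 4.96 CPM in immature and 6.51 ± 0.854 and 11.8 ± 0.21 CPM in mature cells. Mthfd2 was at -3.26 ± 0.84, with group means of 24.7 ± 5 and 19.1 ± 3.64 CPM in immature and 0.301 ± 0.521 and 2.22 ± 0.746 CPM in mature cells. The synthetase Aars was at -1.62 ± 0.32, with group means of 28.9 ± 0.832 and 18 ± 3.8 CPM in immature and 5.83 ± 0.486 and 11.1 ± 1.38 CPM in mature cells. Only Mthfd1l and Aars of the 6 were also called lower with TSLP in immature cells. No other of the 28 genes tested passed, and among all genes tested 4.19% did. Of the 18 markers of dividing cells 11 passed in the same direction, and their part in these differences was not tested.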

How the results depend on the processing

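No called difference of the 28 genes changed direction under any alternative. Of the genes called, 19 of 22 between the stages with IL-3, 15 of 18 with TSLP, 8 of 16 between mature cells, 3 of 7 between immature cells and 4 of 6 for the difference of the stage effects were called under every alternative run. Leaving out 1 library at a time gave 19 to 23, 15 to 20, 10 to 15, 3 to 8 and 4 to 7 genes. The lowest counts were 10 between mature cells, without IL-3 mature 2 or 3, and 3 between immature cells, without TSLP immature 3, followed by 4 without IL-3 immature 1 or 2. Without TSLP mature 1 the counts were 23, 20, 14, 8 and 7. The other alternatives gave 17 to 22, 14 to 18, 11 to 16, 6 to 8 and 6 to 7. Over all genes, leaving out 1 library gave 1774 to 3456 calls between the stages with TSLP in place of 2731 (lowest without TSLP immature 1), 1658 to 2968 between mature cells in place of 2634 (lowest without IL-3 mature 2), 588 to 2243 calls between immature cells in place of 1443 and 240 to 723 for the difference of the stage effects in place of 455. A fit of only the groups compared called 1714 genes (704 higher) between mature cells in place of 2634 (1345 higher).

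With a replicate block 22, 18, 16, 7 and 7 genes were called, the added one being Mthfd1 in the difference of the stage effects (adjusted p = 0.0321 by edgeR). Samples with the same number did not deviate together throughout (correlations of deviations from -0.077 to 0.388), and the main fit did not pair them. Whether immature and mature libraries with the same number came from the same culture is not given in the sources used here. Correlations over so few libraries cannot decide it. Only between immature cells did every sample correlate best with its own number.

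Low counts limit Asns and Shmt1 in mature cells and, with IL-3, Mthfd2, Psat1, Shmt2 and Mthfd1, where 1 to 8 counts per group make the size of the difference uncertain. The SE of these differences can understate that uncertainty. The counts of Phgdh and Aars depend on how reads shared with other transcripts were assigned.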
